A study of Arabidopsis thaliana with 24 samples.

Results

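The genes described here were 7 auxin genes of *Arabidopsis thaliana* that small RNAs are known to target, namely the transcription factor genes *ARF2* (AT5G62000), *ARF3* (AT2G33860) and *ARF4* (AT5G60450) and the auxin receptor genes *TIR1* (AT3G62980), *AFB1* (AT4G03190), *AFB2* (AT3G26810) and *AFB3* (AT1G12820). They were chosen by identifier, 7 of the 33331 gene identifiers in the count tables, and all 7 were among the 22089 genes with enough counts to be tested. Transcripts were measured by RNA-seq in whole seedlings of 8 genotypes, with 3 libraries each and 24 in all. All genotypes had the same treatment, 4 days of shaking in medium with 3% sucrose and light for 24 h a day, which the study calls anthocyanin inductive conditions (AIC). The 6 suppressor lines (S1, S2, S4 and S5, and also S7 and S8) carried *tt19-8*, a T-DNA insertion in the *TT19* gene, plus a further mutation of their own induced with ethyl methanesulfonate (EMS) that restored pigment. Per the study, S1, S2 and S8 had nonsense mutations in *RDR6*, S4 a missense mutation in *RDR6*, S5 a splice-site mutation in *SGS3* and S7 a splice-site mutation in *DCL4*. Their parent *tt19-8* was a group of its own, and Col-0 was the wild type and the background of all lines. Each suppressor was a single EMS line, which can carry other induced mutations, so that a difference between lines cannot be assigned to the named mutation alone.

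Auxin binds between a TIR1/AFB F-box protein and an Aux/IAA repressor, and the SCF ubiquitin ligase that holds the F-box protein then marks the repressor for breakdown, which frees the AUXIN RESPONSE FACTORs (ARFs) to act at their target genes. ARF2, ARF3 and ARF4 are mostly described as repressors of transcription. Their transcripts are cut by tasiR-ARFs, trans-acting siRNAs made from *TAS3* transcripts: miR390 with AGO7 cleaves the *TAS3* RNA, SGS3 and RDR6 turn it into double-stranded RNA, and DCL4 cuts that RNA into siRNAs. Transcripts of *TIR1* and the *AFB* genes are targets of miR393, which is made without RDR6, and cleaved receptor transcripts can give secondary siRNAs through the same RDR6 route. RDR6, SGS3 and DCL4 are the proteins affected in the suppressor lines.

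The sequences that join these genes to their small RNAs were read from RefSeq TAIR10.1, and the target sites all lay in coding parts of exons. In that build *ARF2* spans chr5:24910191-24915395, *ARF3* chr2:14325206-14328978, *ARF4* chr5:24308255-24312784, *TIR1* chr3:23273065-23276630, *AFB1* chr4:1404887-1407402, *AFB2* chr3:9867652-9870782 and *AFB3* chr1:4368760-4371298. The mature miRNAs are shown first because they set off each route, with the seed (bases 2 to 8) in capitals. The 2 miR390 genes gave the same mature sequence, as did the 2 miR393 genes.
miR390a-5p and miR390b-5p: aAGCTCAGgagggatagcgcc
miR393a-5p and miR393b-5p: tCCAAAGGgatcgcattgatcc

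The stretches of 21 bases of the *TAS3* transcripts that paired best with the *ARF2*, *ARF3* and *ARF4* transcripts are shown because they contain the part of a tasiR-ARF that meets its target, with the 12 bases shared by the 3 loci in capitals. The ends of the siRNAs themselves were not measured here. *TAS3A* lay at chr3:5862205-5862225, *TAS3B* at chr5:20134514-20134534 and *TAS3C* at chr5:23394327-23394347, all on the plus strand.
TAS3A: tTTCTTGACCTTGtaagaccc
TAS3B: TTCTTGACCTTGtaagacctt
TAS3C: tTTCTTGACCTTGcaaggctt

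The matching sites in the targets are shown to compare members, with bases in capitals where they form a Watson-Crick pair with the *TAS3A* stretch or with miR393. *ARF2* held 1 site, at chr5:24913262-24913282 on the plus strand in exon 12 of 15. *ARF3* held 2 sites, both in exon 10 of 10 on the minus strand, at chr2:14325941-14325961 and chr2:14325821-14325841. *ARF4* also held 2 sites, both in exon 10 of 12 on the minus strand, at chr5:24309717-24309737 and chr5:24309507-24309527.
ARF2: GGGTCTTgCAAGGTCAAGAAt
ARF3, first site: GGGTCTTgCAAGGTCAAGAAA
ARF3, second site: aGGTCTTgCAAGGTCAAGAAA
ARF4, first site: aGGTCTTgCAAGGTCAAGAAA
ARF4, second site: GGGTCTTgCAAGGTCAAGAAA

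The miR393 sites lay at chr3:23273727-23273748 (*TIR1*, minus strand, exon 3 of 3), chr4:1405341-1405362 (*AFB1*, minus strand, exon 3 of 3), chr3:9870237-9870258 (*AFB2*, plus strand, exon 3 of 3) and chr1:4369085-4369106 (*AFB3*, minus strand, exon 4 of 4). *AFB2* and *AFB3* shared an identical site with 2 mismatches, and the *AFB1* site had the most, with 3.
TIR1: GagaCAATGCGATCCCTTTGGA
AFB1: GagaCcATGCGATCCCTTTGGA
AFB2: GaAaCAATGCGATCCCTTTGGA
AFB3: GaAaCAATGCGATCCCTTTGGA

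With a mismatch counted as 1 and a G:U pair as 0.5, 3 of 27444 coding genes (0.0109%) held a site for the *TAS3A* stretch at a penalty of up to 2, namely *ARF2*, *ARF3* and *ARF4*, and none of the other 20 ARF genes did. For miR393, 5 of 27444 coding genes (0.0182%) held a site at a penalty of up to 3.5, namely the 4 receptor genes and AT3G23690. The *TAS3A* stretch was itself picked by its pairing with *ARF2*, *ARF3* and *ARF4*. The limit of 3.5 is the penalty of the *AFB1* site. The presence of the members among these genes was therefore set beforehand and is no test. These matches describe the sequences, and neither small RNAs nor cleavage were measured in these libraries.

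Library totals ran from 25.8 to 73.4 M counts, and the members had between 358 and 33970 counts in any library. The labels do not say whether the 3 libraries of a genotype came from separate cultures, so p-values measure the spread between these libraries, which may be technical. Replicate 3 stood apart from replicates 1 and 2 in several genotypes. The summed level of 11 low-oxygen markers, all of which were detected, was 8253 CPM in *tt19-8* replicate 3 and 1906 and 1843 CPM in the other *tt19-8* libraries, and it was also highest in replicate 3 of S2 (4010 CPM) and of S8 (6603 CPM). In S5 the sum was also highest in replicate 3 (1749 CPM, with 1276 and 1321 CPM in the others). It was lowest in replicate 3 of S7 (1435 CPM, with 2926 and 3230 CPM in the others) and of Col-0 (1153 CPM, with 1908 and 1814 CPM in the others). Over the genotypes the same sum ran from 1003 to 1025 CPM in S1, from 5782 to 6130 CPM in S4 and from 1153 to 1908 CPM in Col-0. The sum of 8 root markers was lower in every line (103.5 to 112.4 CPM in S1, the lowest, and 151 to 226.9 CPM over the other lines) than in *tt19-8* (254.1 to 268 CPM) and Col-0 (250.3 to 269 CPM). Single root markers did not all follow this sum. Their median log2 fold change in S4 was −0.06 against *tt19-8* and 0.49 against Col-0, and *PLT2* was called higher than in *tt19-8* in 1 line. The sum of 6 green shoot markers was 292.3 to 342.1 CPM in S7 and 90.23 to 102.2 CPM in S4, against 158.9 to 163.9 CPM in *tt19-8*. The part of these differences in the results on the auxin genes was not tested, and in whole seedlings fewer cells of a type and less RNA per cell cannot be told apart.

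The member called in the most lines was *ARF4*, which with *ARF3* promotes the abaxial (lower) side of leaves. Each of the 6 lines had more *ARF4* transcript than *tt19-8*, by 0.20 (S1) to 1.14 (S2) on the log2 scale. Its levels, in counts scaled to library size after TMM normalisation (CPM), were 58.4, 54.7 and 52.8 in S1, followed by S2 with 102, 107 and 109, S4 with 85.3, 86.6 and 89.2, S5 with 80.4, 83.3 and 65.1, S7 with 105, 96.6 and 98.5 and S8 with 90.9, 92.4 and 84.8. *ARF4* was at 47.6, 49.0 and 48.1 CPM in *tt19-8* and at 54.7, 60.4 and 58.5 CPM in Col-0. Every library of every line lay above all 3 *tt19-8* libraries, a lack of overlap seen for 50.9% of all genes tested (S1), 28.1% (S2), 40.1% (S4), 36.7% (S5), 42.5% (S7) and 36.9% (S8). The libraries of S1 overlapped those of Col-0, while every library of the other 5 lines lay above Col-0, where 39.7% (S2) to 61.1% (S4) of all genes did not overlap.

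Against *tt19-8*, the log2 fold change of *ARF4* was 1.14 ± 0.08 in S2 (SE; 2.20-fold; adjusted p = 2.96e-09, edgeR), 1.05 ± 0.08 in S7 (2.07-fold; adjusted p = 2.29e-09, edgeR) and 0.89 ± 0.08 in S8 (1.85-fold; adjusted p = 6.28e-08, edgeR). It was 0.85 ± 0.08 in S4 and 0.66 ± 0.08 in S5 (adjusted p = 1.58e-07 and 5.55e-06, edgeR). Each of these 5 calls remained under every alternative run, with an adjusted p of at most 0.00914. In S1 the change was 0.20 ± 0.07 (1.15-fold; adjusted p = 0.0452, edgeR), and the call was lost without S1 replicate 1 (0.181) or 2 (0.0824) and without *tt19-8* replicate 1 (0.107), 2 (0.0739) or 3 (0.0906).

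The lines also differed from each other in *ARF4*, with 12 of the 15 pairs of lines past the threshold, where 10.7% (S2 against S8) to 46.9% (S1 against S7) of all genes were called. *ARF4* in S1 was lower than in every other line, by 0.46 (S5) to 0.94 (S2) on the log2 scale, with adjusted p between 0.000221 (S5) and 1.21e-08 (S2) (edgeR). S1 and S8 both have nonsense mutations in *RDR6* per the study, and *ARF4* averaged 55.3 ± 2.9 CPM in S1 and 89.4 ± 4.0 CPM in S8 (SD, n = 3 each; log2 fold change −0.69 ± 0.07, adjusted p = 1.03e-06, edgeR). From the highest mean, the genotypes followed the order S2, S7, S8, S4, S5, Col-0, S1 and *tt19-8*. The neighbours S2 and S7 (adjusted p = 0.415, edgeR), S8 and S4 (0.722) and Col-0 and S1 (0.528) overlapped and did not pass the threshold. The libraries of S7 and S8 did not overlap, with a 95% interval of 0.01 to 0.32 on the log2 scale, but missed the threshold after adjustment (0.0935). For pairs of lines, the share of all genes without overlap is not given, here or below. The neighbours S4 and S5 differed (adjusted p = 0.0449, edgeR), a call lost without S4 replicate 1 (0.0675), 2 (0.0872) or 3 (0.126) or S5 replicate 3 (0.3), and S5 and Col-0 differed (0.000514), as did S1 and *tt19-8*.

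**Figure D1:**
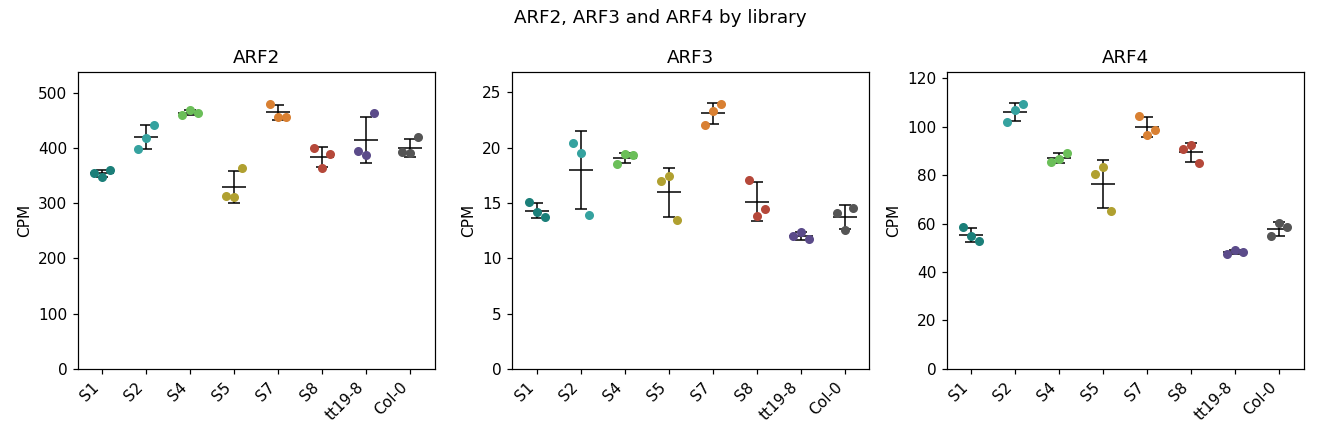
Levels of *ARF2*, *ARF3* and *ARF4* in CPM (y axis, from 0) in each library (points) by genotype (x axis), with the mean and SD (n = 3) in black. *ARF4* lay at 47.6 to 49.0 CPM in *tt19-8* and above that in all libraries of the 6 lines, reaching 109 CPM in S2, whereas *ARF2* ranged over means of 330 to 465 CPM.

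*ARF3* (ETTIN), which is known for its part in flower and leaf patterning, was the lowest expressed member, and it was higher than in *tt19-8* in S2, S4, S5 and S7. *ARF3* was at 15.05, 14.2 and 13.7 CPM in S1, followed by S2 with 20.4, 19.6 and 13.9 CPM, S4 with 18.5, 19.4 and 19.3 CPM, S5 with 17.0, 17.5 and 13.4 CPM, S7 with 22.1, 23.3 and 24.0 CPM and S8 with 17.1, 13.8 and 14.4 CPM, against 11.98, 12.4 and 11.7 CPM in *tt19-8*. No library of a line overlapped *tt19-8*, although S2 and S5 each had a replicate 3 well below their other libraries. Such a lack of overlap was seen for 28.1% (S2) to 50.9% (S1) of all genes tested. The log2 fold change against *tt19-8* was 0.94 ± 0.12 in S7 (1.92-fold; adjusted p = 4.94e-06, edgeR), 0.66 ± 0.12 in S4 (0.000678), 0.57 ± 0.12 in S2 (0.00224) and 0.41 ± 0.12 in S5 (0.0194). The S4 and S7 calls remained under every alternative. The S5 call was lost without S5 replicate 1 (adjusted p = 0.0874) or 2 (0.0947) or *tt19-8* replicate 3 (0.0577), and the S2 call when only S2 and *tt19-8* were fitted (0.0749, edgeR).

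In S1 and S8 *ARF3* did not pass the threshold against *tt19-8*. The log2 fold change was 0.25 in S1 (95% interval −0.00359 to 0.50; adjusted p = 0.121, edgeR) and 0.33 in S8 (0.07 to 0.58; adjusted p = 0.0562, edgeR). The S8 value passed with DESeq2 (adjusted p = 0.0384), with RLE scaling (0.0452) and without S8 replicate 2 (0.0472). It also passed without replicate 3 of *tt19-8*, S2 and S8 together (0.0376) and without replicate 3 of all genotypes (0.0195, edgeR). Between lines, *ARF3* was lower in S1 than in S7 (log2 fold change −0.69 ± 0.12; adjusted p = 7.42e-05, edgeR), lower in S5 than in S7 (−0.53 ± 0.12; 0.00112) and higher in S7 than in S8 (0.61 ± 0.12; 0.000416). *ARF3* means spanned 1.92-fold over the genotypes, with S7 highest at 23.1 ± 0.98 CPM and *tt19-8* lowest at 12.04 ± 0.35 CPM (SD, n = 3 each). No neighbours in the order of *ARF3* levels passed the threshold. S4 and S7 did not overlap (log2 fold change −0.28, 95% interval −0.53 to −0.03; adjusted p = 0.0651, edgeR), and neither did *tt19-8* and Col-0 (−0.19; 0.314), where 33.6% of all genes did not. For S4 and S7 that share is not given.

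*ARF2*, a repressor known for its effects on seed size, ageing and hook opening, was the most abundant member and showed no rise past the threshold in any line against *tt19-8*. It was lower in S1 (355, 348 and 360 CPM) and in S5 (314, 312 and 363 CPM) than in *tt19-8* (395, 388 and 463 CPM), and neither line overlapped *tt19-8*, as for 50.9% (S1) and 36.7% (S5) of all genes tested. The log2 fold change was −0.33 ± 0.07 in S5 (0.79-fold; adjusted p = 0.00243, edgeR) and −0.23 ± 0.07 in S1 (0.85-fold; adjusted p = 0.0195, edgeR). The S1 call was lost without *tt19-8* replicate 3 (adjusted p = 0.136) or S1 replicate 2 (0.0629), and the S5 call when only S5 and *tt19-8* were fitted (0.0713). *ARF2* in *tt19-8* replicate 3 was above both other *tt19-8* libraries, and this library decided other values. Without it, S4 (0.016) and S7 (0.00955) passed as higher in *ARF2* than *tt19-8*, against adjusted p = 0.131 and 0.087 with it (edgeR).

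In S4 and S7 *ARF2* averaged 464 ± 4.7 and 465 ± 13 CPM, against 415 ± 42 CPM in *tt19-8* (SD, n = 3 each), with log2 fold changes of 0.16 in both (95% intervals 0.01 to 0.31 and 0.01 to 0.32). In S2 the log2 fold change was 0.02 (−0.14 to 0.17) and in S8 −0.11 (−0.27 to 0.04), so that a rise of the size measured for *ARF4* in these lines lay outside both intervals. The *ARF2* levels ran in the order S7, S4, S2, *tt19-8*, Col-0, S8, S1 and S5, and no neighbours passed the threshold. The libraries of S2 and S4 (adjusted p = 0.144, edgeR) and of S1 and S8 (0.251) nevertheless did not overlap. The share of all genes without overlap is not given for these pairs.

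**Figure D2:**
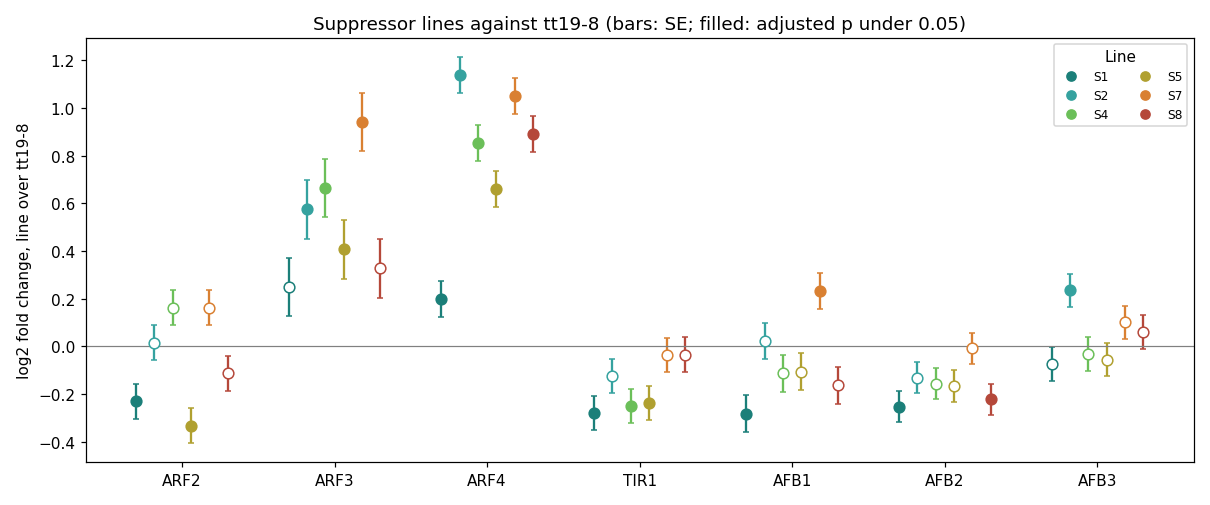
Log2 fold change of each member in each suppressor line over *tt19-8* (y axis; bars, SE; n = 3 libraries per genotype; filled points, adjusted p under 0.05). *ARF4* lay above 0 in all 6 lines, from 0.20 in S1 to 1.14 in S2, while the 4 receptor genes stayed between −0.28 and 0.23.

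Scaled for transcript length, *ARF2* made up most of the summed level of the 3 ARF genes in every genotype, and the mean share of *ARF4* was larger in each line than in *tt19-8*. The share of *ARF4* in the sum of CPM per kb was 22.1 ± 0.07% in S2, 20.8 ± 1.3% in S8, 20.5 ± 3.2% in S5, 19.3 ± 0.28% in S7, 17.4 ± 0.33% in S4 and 14.9 ± 0.70% in S1, against 11.7 ± 1.0% in *tt19-8* and 14.1 ± 0.76% in the wild type Col-0 (SD, n = 3 each). The share of *ARF3* stayed between 3.34% (*tt19-8*) and 5.07% (S7). The sum itself was 159 ± 4.4 CPM per kb in S7 and 113 ± 1.7 CPM per kb in S1, against 126 ± 11 CPM per kb in *tt19-8*. Among the receptor genes *AFB2* was the most abundant per length, with 36.8% (S8) to 41.2% (Col-0) of their sum, and *AFB1* the least, with 11.4% (Col-0) to 15% (S7).

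**Figure D3:**
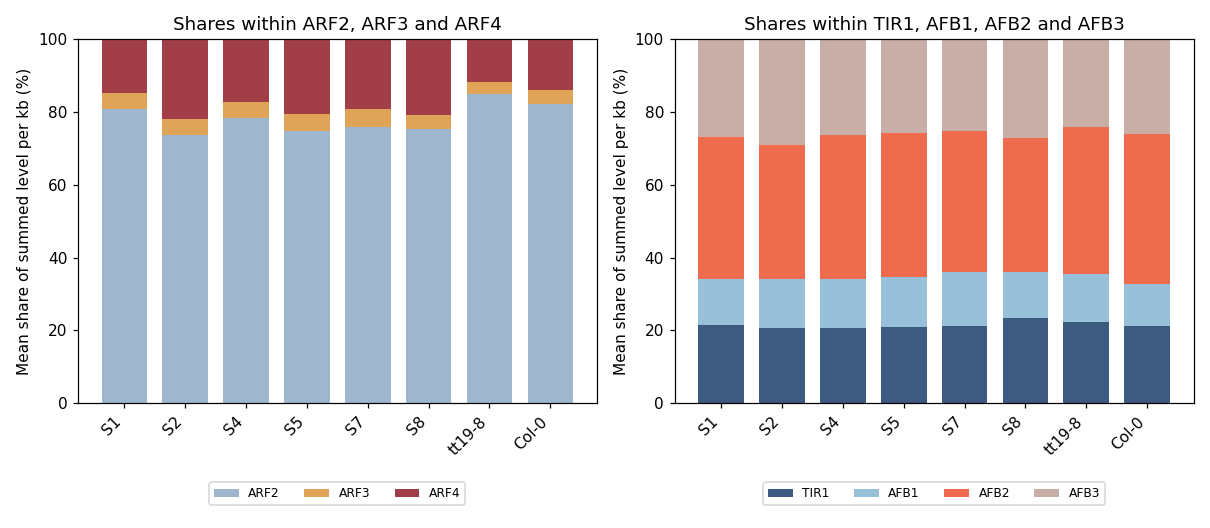
Mean share of each gene (%, y axis) in the summed level per kb of the 3 ARF genes (left) and of the 4 receptor genes (right) by genotype (x axis). *ARF4* made up 11.7% in *tt19-8* and 22.1% in S2, and the receptor shares changed little, with *AFB2* between 36.8 and 41.2%.

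*TIR1*, which encodes the founding auxin receptor, was lower than in *tt19-8* in S1, S4 and S5. It was at 60.6, 56.2 and 57.6 CPM in S1, 56.5, 59.9 and 61.9 CPM in S4 and 61.6, 59.5 and 58.4 CPM in S5, against 72.2, 67.8 and 71.7 CPM in *tt19-8*. None of these 3 lines overlapped *tt19-8*, as for 50.9% (S1), 40.1% (S4) and 36.7% (S5) of all genes tested. The log2 fold changes were −0.28 ± 0.07 (S1; adjusted p = 0.00459), −0.25 ± 0.07 (S4; 0.0187) and −0.24 ± 0.07 (S5; 0.0192) (edgeR). The S1 call remained under every alternative. The S4 call was lost without S4 replicate 1 (0.0905) or 2 (0.0507) or *tt19-8* replicate 1 (0.0735), and the S5 call without S5 replicate 2 (0.0609) or 3 (0.0512) or *tt19-8* replicate 1 (0.0581) or 3 (0.0538).

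In the other lines *TIR1* did not pass the threshold against *tt19-8*. The 95% interval of its log2 fold change was −0.27 to 0.02 in S2, −0.19 to 0.11 in S7 and −0.18 to 0.12 in S8. *TIR1* in S2 replicate 3 was at 55.7 CPM, against 70.4 and 68.2 CPM in the other S2 libraries. Over the 8 genotypes the *TIR1* means spanned 1.21-fold, the narrowest range of the members, in the order *tt19-8*, Col-0, S8, S7, S2, S5, S4 and S1, and neighbours in this order overlapped and did not pass the threshold.

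*AFB2*, a close relative of *AFB3* in the receptor family, was at 112, 107 and 110 CPM in S1 and at 115, 115 and 107 CPM in S8, against 132, 132 and 128 CPM in *tt19-8*. Both lines lay wholly below *tt19-8*, a lack of overlap seen for 50.9% (S1) and 36.9% (S8) of all genes tested. The log2 fold changes were −0.25 ± 0.07 (S1; 0.84-fold; adjusted p = 0.00529) and −0.22 ± 0.07 (S8; 0.86-fold; adjusted p = 0.0161) (edgeR). The S1 call remained under every alternative, and the S8 call was lost without S8 replicate 3 (0.0826). In S2, S4 and S5 the *AFB2* libraries also lay below those of *tt19-8* (no overlap for 28.1%, 40.1% and 36.7% of all genes). The differences of −0.13, −0.16 and −0.17 did not pass the threshold (adjusted p = 0.176, 0.102 and 0.071, edgeR). The S5 value passed with DESeq2 (0.0381), without S5 replicate 3 (0.0252) and without replicate 3 of all genotypes (0.00456). *AFB2* in S7 (124, 129 and 137 CPM) overlapped *tt19-8*, with a 95% interval of −0.15 to 0.13 on the log2 scale. The *AFB2* means ran in the order Col-0, *tt19-8*, S7, S2, S4, S5, S8 and S1, and no neighbours passed the threshold, although *tt19-8* and Col-0 did not overlap (log2 fold change −0.09; adjusted p = 0.396, edgeR), as for 33.6% of all genes.

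*AFB1*, a receptor known for rapid root responses, was the least abundant receptor gene and was called in opposite directions in a pair of lines. It was at 29.4, 30.4 and 30.4 CPM in S1 and at 38.1, 42.9 and 47.6 CPM in S7, against 35.2, 34.3 and 40.1 CPM in *tt19-8*. S1 lay wholly below *tt19-8* (no overlap for 50.9% of all genes tested), while S7 replicate 1 overlapped it. S8 (32.2, 31.9 and 33.7 CPM) also lay below *tt19-8* (36.9% of all genes) but did not pass (adjusted p = 0.124, edgeR). The log2 fold change was −0.28 ± 0.08 in S1 (adjusted p = 0.00674, edgeR) and 0.23 ± 0.08 in S7 (0.0205). The S1 call was lost without *tt19-8* replicate 3 (0.0523), and the S7 call without S7 replicate 3 (0.143), which stood apart from the other S7 libraries in low-oxygen markers, or *tt19-8* replicate 1 (0.0775) or 2 (0.109). The *AFB1* means followed the order S7, S2, *tt19-8*, S5, S4, Col-0, S8 and S1, and of the neighbours S7 and S2 alone passed the threshold (adjusted p = 0.0429, edgeR), a call lost without any library of S2 (0.062 to 0.116) or without S7 replicate 2 (0.0886) or 3 (0.248). The reading of *AFB1* is limited by its neighbours, since the annotated genes AT4G03180 and AT4G04455 overlap 2.19% and 18.2% of it on the opposite strand and the use of strand in the counting is not stated.

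*AFB3*, another TIR1-like receptor gene, was called against *tt19-8* in S2 alone, where it was higher, at 82.4, 74.8 and 71.7 CPM in S2, against 68.3, 63.7 and 62.6 CPM in *tt19-8*. The 2 sets of libraries did not overlap, as for 28.1% of all genes tested (log2 fold change 0.23 ± 0.07; adjusted p = 0.0235, edgeR). The call was lost without S2 replicate 1 (0.117) or *tt19-8* replicate 2 (0.0828) or 3 (0.064). The *AFB3* means spanned 1.24-fold, in the order S2, Col-0, S7, S8, *tt19-8*, S4, S5 and S1, and neighbours overlapped and did not pass the threshold. In the other lines the 95% intervals against *tt19-8* ran from −0.22 (S1) to 0.25 (S7) on the log2 scale. The S1 libraries lay below and the S7 libraries above those of *tt19-8* (no overlap for 50.9% and 42.5% of all genes tested), without passing the threshold. *AFB3* also has annotated neighbours on the opposite strand, AT1G04977 over 28.6% and AT1G12810 over 2.82% of its length.

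**Figure D4:**
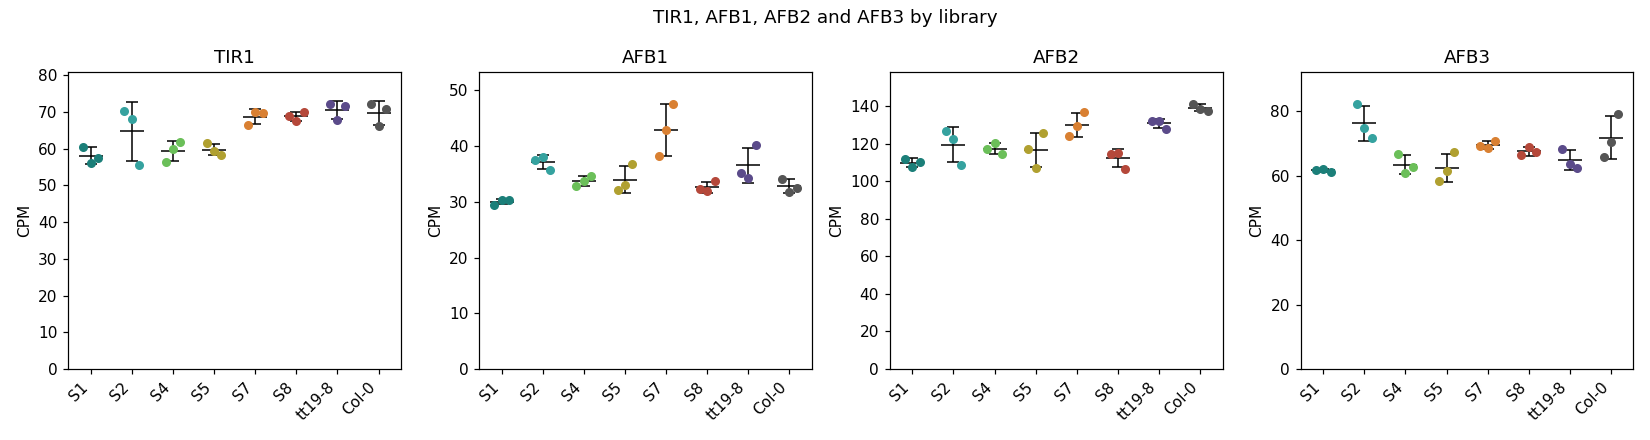
Levels of *TIR1*, *AFB1*, *AFB2* and *AFB3* in CPM (y axis, from 0) in each library (points) by genotype (x axis), with the mean and SD (n = 3) in black. The S1 libraries of *TIR1*, *AFB1* and *AFB2* lay below all *tt19-8* libraries (no overlap for 50.9% of all genes tested), and *AFB1* was highest in S7, at 38.1 to 47.6 CPM.

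Over the 7 members and 6 lines, 20 of 42 comparisons with *tt19-8* passed the threshold, 12 higher and 8 lower, of which *ARF3* and *ARF4* gave 10 of the 12 higher. By line, 1 member was higher and 4 were lower in S1, where 34.0% of all genes tested were called (16.5% higher and 17.5% lower). In S2, 3 were higher (19.1% of all genes called, 9.49% higher and 9.60% lower), and in S4, 2 were higher and 1 was lower (18.7%, with 7.83% higher and 10.9% lower). In S5, 2 were higher and 2 lower (24.7%, with 12.3% higher and 12.4% lower), in S7, 3 were higher (37.3%, with 18.1% higher and 19.2% lower), and in S8, 1 was higher and 1 lower (25.6%, with 12.6% higher and 13.1% lower). With 7 members, the counts of 3 in S7 and 2 in S8 were near the background. Without replicate 3 of *tt19-8*, S2 and S8, which had high low-oxygen markers, 20 of 42 passed, and without replicate 3 of all genotypes, an alternative chosen after the data were seen, 24 of 42. The median log2 fold change of the members against *tt19-8* ran from −0.23 in S1 to 0.16 in S7, and that of all genes tested from −0.02 to −0.00.

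Between *tt19-8* and Col-0, 1 of 7 members was called, where 13.6% of all genes were, so that this count was near the background. Less *ARF4* transcript was counted in *tt19-8* than in Col-0 (48.2 ± 0.71 against 57.9 ± 2.9 CPM, 3 libraries each; log2 fold change −0.26 ± 0.08; adjusted p = 0.0234, edgeR). The libraries did not overlap, as for 33.6% of all genes, but the call was lost without *tt19-8* replicate 1 (0.0577) or 3 (0.0651) or Col-0 replicate 2 (0.0952) or 3 (0.0628). The 95% intervals of the other members in this comparison were −0.10 to 0.20 (*ARF2*), −0.45 to 0.06 (*ARF3*), −0.13 to 0.17 (*TIR1*), −0.00196 to 0.32 (*AFB1*), −0.23 to 0.05 (*AFB2*) and −0.29 to −0.000148 (*AFB3*, adjusted p = 0.174, edgeR). Of these, *ARF3*, *AFB1* and *AFB2* also did not overlap, as for 33.6% of all genes.

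The comparisons of the lines with Col-0 share their line libraries with those above. In them 23 of 42 passed. S1 had 3 of 7, where 36.4% of all genes were called, S2 had 3 (27.3%), S4 had 6 (42.9%), S5 had 5 (25.2%), S7 had 4 (42.7%) and S8 had 2 (29.2%). The counts in S1 and S8 were near the background. *ARF4* was higher than in Col-0 in S2, S4, S5, S7 and S8, by 0.40 (S5) to 0.87 (S2) on the log2 scale. S1 did not pass (log2 fold change −0.06, 95% interval −0.22 to 0.09; adjusted p = 0.528, edgeR). *ARF3* was higher in S2 (0.38 ± 0.12), S4 (0.47 ± 0.12) and S7 (0.75 ± 0.12). The S2 libraries overlapped Col-0, and that call was lost without S2 replicate 1 (0.112) or 2 (0.0899) or Col-0 replicate 2 (0.103). *ARF2* was higher in S4 and S7 (0.21 ± 0.07 each) and lower in S5 (−0.28 ± 0.07).

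Of these *ARF2* calls against Col-0, that of S4 was lost without S4 replicate 2 (0.065) or 3 (0.0548) or Col-0 replicate 1 (0.0744) or 2 (0.0789), and that of S7 without S7 replicate 1 (0.0875) or Col-0 replicate 1 (0.0721) or 2 (0.0779). *AFB2* was lower than in Col-0 in S1, S2, S4, S5 and S8, with log2 fold changes of −0.22 (S2) to −0.34 (S1). All libraries of the lines lay below those of Col-0 for *AFB2* (141, 139 and 138 CPM), a lack of overlap from Col-0 seen for 57.7% of all genes (S1), 39.7% (S2), 61.1% (S4), 42.3% (S5), 51.5% (S7) and 44.5% (S8). The S2 call of *AFB2* was lost without S2 replicate 3 (0.106) or Col-0 replicate 1 (0.0557), and the S5 call without S5 replicate 2 (0.0557). *TIR1* was lower in S1 (−0.26), S4 (−0.23) and S5 (−0.22), the last lost without S5 replicate 2 (0.0729) or 3 (0.0764) or Col-0 replicate 1 (0.0993) or 3 (0.072) and that of S4 without S4 replicate 1 (0.064) or Col-0 replicate 1 (0.0533).

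*AFB3* was lower than in Col-0 in S1 (−0.22), S4 (−0.18) and S5 (−0.20), at 61.7 ± 0.43, 63.4 ± 2.9 and 62.4 ± 4.5 CPM, against 71.8 ± 6.7 CPM in Col-0 (SD, n = 3 each). S4 and S5 overlapped Col-0, and all 3 calls were lost without Col-0 replicate 3 (adjusted p of 0.129 in S1, 0.274 in S4 and 0.225 in S5, edgeR). Leaving out S1 replicate 3 (0.0529), S4 replicate 2 (0.154) or 3 (0.111), S5 replicate 1 (0.176) or 2 (0.109), or Col-0 replicate 2 (0.0664 in S4 and 0.0693 in S5) also ended the call of the line concerned. The S4 call was further lost with DESeq2 (0.0601), RLE scaling (0.0643) and no filter (0.0817). The S5 call was also lost with no filter (0.0501) and when only S5 and Col-0 were fitted (0.111, edgeR). *AFB1* was higher than in Col-0 in S7 alone (0.39 ± 0.08; adjusted p = 0.000334, edgeR), at 42.9 ± 4.7 CPM against 32.8 ± 1.2 CPM (SD, n = 3 each).

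Between lines, 45 of 105 comparisons of members passed, 12 of them for *ARF4*, 9 for *ARF2*, 7 for *ARF3*, 6 for *AFB1*, 5 for *TIR1*, 4 for *AFB3* and 2 for *AFB2*, each out of 15. All 7 members were lower in S1 than in S7, where 46.9% of all genes were called. S1 gave 5 calls with S2 (30.8% of all genes), 3 with S4 (42.2%), 1 with S5 (19.8%) and 2 with S8 (28.0%). S2 gave 2 calls with S4 (28.6%), 3 with S5 (19.2%), 2 with S7 (28.5%) and 1 with S8 (10.7%). The other pairs gave 2 for S4 against S5 (41.5%), 3 for S4 against S7 (43.8%), 3 for S4 against S8 (35.6%), 5 for S5 against S7 (45.2%), 2 for S5 against S8 (14.9%) and 4 for S7 against S8 (39.9%). Many of these counts were near or below the background, as for S1 with S4 and S8, S2 with S4 and S7, and S4 with S5 and S7.

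Among genes of the small RNA route, *RDR6* and *SGS3* showed the largest differences, each in lines mutated in that gene. *RDR6*, the RNA-dependent RNA polymerase, was at 10.4 CPM in S8 (log2 fold change −1.46 ± 0.12; adjusted p = 4.47e-08, edgeR) and 19.4 CPM in S2 (−0.56 ± 0.11; 0.00158), against 28.6 CPM in *tt19-8*. In S1 and S4 it did not pass (−0.24 and −0.01; adjusted p = 0.111 and 0.967). *SGS3*, the RNA-binding partner of *RDR6*, was at 12.6 CPM in S5, against 29.9 CPM in *tt19-8* (−1.24 ± 0.18; adjusted p = 4.53e-05, edgeR). *DCL4*, the Dicer that cuts the siRNAs, was at 33.5 CPM in S7, against 37.1 CPM in *tt19-8* (−0.15 ± 0.10; adjusted p = 0.273), and passed in S5 alone (−0.32; 0.0276).

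*TAS3A*, a tasiR-ARF precursor, was higher in S5 (9.79 CPM) than in *tt19-8* (6.52 CPM; log2 fold change 0.59 ± 0.16; adjusted p = 0.0122, edgeR) and its log2 fold change was −0.04 (S7) to 0.40 (S4) in the other lines, none of which passed. *AGO7*, which carries miR390, was lower in S4 alone (−0.49 ± 0.12; adjusted p = 0.0074), and *AGO1*, which carries most miRNAs and the tasiRNAs, was lower in S1 (−0.24), S5 (−0.36) and S8 (−0.27). *DRB4*, the partner of *DCL4*, passed in no line (highest log2 fold change 0.17 in S5, adjusted p = 0.0686, edgeR). *TAS3B*, *TAS3C* and the miR390 and miR393 genes had at most 8 counts in any library and were not tested. Of the 13 genes of this list 7 were tested, and 0 (S7) to 4 (S5) of them passed per line, where 37.3% (S7) and 24.7% (S5) of all genes did.

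Of the 5 ARF genes targeted by miR160 or miR167, 0 (S2) to 4 (S5, S7) were called per line against *tt19-8*, where 19.1% (S2), 24.7% (S5) and 37.3% (S7) of all genes were. *ARF8* was lower in S1 (−0.18), S5 (−0.21) and S8 (−0.23) and higher in S7 (0.64 ± 0.07; adjusted p = 2.66e-07, edgeR), *ARF6* lower in S4 (−0.32) and S5 (−0.24) and higher in S7 (0.23), and *ARF16* lower in S5 (−0.26) and S7 (−0.48). Among the other ARF genes, 9 of 15 were tested. *ARF5* (MONOPTEROS), an activator that acts in vein and root formation, was higher in S1 (0.98 ± 0.10; adjusted p = 3.6e-07, edgeR), S2 (0.48), S5 (0.57), S7 (0.33) and S8 (0.77), with 55.3 CPM in S1 against 28.0 CPM in *tt19-8*. Among the lines S1 was thus highest in *ARF5* and lowest in *ARF4*, but in S8 both were raised (0.77 for *ARF5* and 0.89 for *ARF4*). A relation between the genes was not tested. *ARF19*, an activator of lateral root formation, was lower in S1 (−0.48), S2 (−0.34), S5 (−0.46) and S7 (−0.53) and higher in S4 (0.33), and *ARF11* was lower in S4 (−1.003), S5 (−0.84) and S8 (−0.81) and higher in S7 (0.49).

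Of 3 receptor genes without a miR393 site at this penalty, 1 was called in 1 line. *AFB5* was lower in S4 (−0.40 ± 0.11; adjusted p = 0.0111, edgeR), and *AFB4* and the jasmonate receptor gene *COI1* passed in no line. Of 9 genes of the SCF complex and its regulation, 0 (S4) to 3 (S7) were called per line, where 18.7% (S4) and 37.3% (S7) of all genes were, so that the count in S7 was near the background. *ASK1*, the adaptor that holds the F-box protein, was higher in S2 (0.22), S5 (0.28) and S8 (0.21), *RCE1* was higher in S5 (0.29) and S8 (0.29), and *ASK2* was lower in S1 (−0.23) and S7 (−0.28).

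The Aux/IAA genes, whose products are what the receptors bind and many of which are quickly induced by auxin, were called in both directions in every line. Of 28 tested, 1 was higher and 11 were lower in S1. In S2, 6 were higher and 3 lower, in S4, 10 and 2. S5 had 3 higher and 4 lower, S7 had 5 and 6, and S8 had 2 and 7. The shares of all genes called were 34.0% (S1), 19.1% (S2), 18.7% (S4), 24.7% (S5), 37.3% (S7) and 25.6% (S8), so that the counts in S5 and S7 were near the background. Their median log2 fold change against *tt19-8* was −0.37 in S1 and 0.31 in S4, where that of all genes tested was −0.00 and −0.01. *IAA1* was higher in S4 (17.8 CPM against 3.89 CPM in *tt19-8*; log2 fold change 2.19 ± 0.17; adjusted p = 1.93e-08, edgeR), S2 (1.15), S5 (0.75) and S8 (0.92), and *IAA30* in the same 4 lines, by 0.91 (S8) to 2.30 (S4). *IAA27* was lower in S1 (−0.93 ± 0.19), S4 (−0.63), S5 (−0.72) and S8 (−0.62).

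Among 4 genes that work with *ARF3* and *ARF4* in leaf polarity, *AS2*, which represses *ARF3* in leaves, was higher in S1 (0.69 ± 0.26), S2 (1.01 ± 0.26), S7 (0.99 ± 0.26) and S8 (0.94 ± 0.26), at 1.62 CPM in *tt19-8*. *KAN1*, an abaxial factor, was lower in S1 (−0.26), S5 (−0.45) and S7 (−0.26). The other 2 genes of this list passed in no line.

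The genes whose levels followed each member most closely over the 24 libraries were sought by Pearson's r of log2 CPM, among the 15656 tested genes whose mean reached 5 CPM. These values describe 24 libraries that fall into 8 genotypes and are therefore not independent points. For *ARF4* the closest gene was AT3G25795, the *TAS4* precursor (r = 0.957), which gives the siRNAs against MYB pigment regulators by the same RDR6 route. It was followed by *FUT3* (r = 0.948), a fucosyltransferase gene, and *TT8* (r = 0.947), the bHLH regulator of the late pigment genes. The *TAS4* precursor AT3G25795 was at 10.9, 13.9 and 12.7 CPM in S1 and at 56.4, 59.7 and 35.03 CPM in S2, against 7.16, 6.08 and 5.98 CPM in *tt19-8*. Its log2 fold change against *tt19-8* was 0.96 ± 0.21 (S1), 2.98 ± 0.21 (S2), 1.91 ± 0.21 (S4), 1.75 ± 0.21 (S5), 2.93 ± 0.21 (S7) and 2.69 ± 0.21 (S8), with S1 lowest as for *ARF4*. The precursor did not differ past the threshold between S2 and S7 (50.4 and 48.6 CPM; adjusted p = 0.873, edgeR). S5 replicate 3 was lowest of the S5 libraries in both, at 13.9 CPM of the precursor AT3G25795 and 65.1 CPM of *ARF4*. Since AT3G25795 was picked by its r with *ARF4* over these libraries, such likeness follows from the choice and is no further result.

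**Figure D5:**
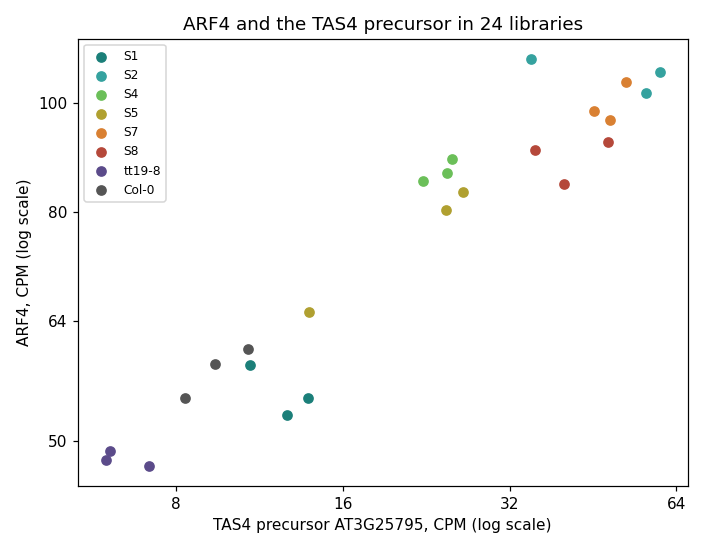
*ARF4* (y axis) against the *TAS4* precursor AT3G25795 (x axis), both in CPM on log scales, in the 24 libraries, coloured by genotype (r = 0.957). The *tt19-8* libraries lie lowest, the S1 and Col-0 libraries next to them, and the S2 and S7 libraries highest in *ARF4*.

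For *ARF3* the closest genes were *AAE18* (r = 0.861), *TT4* (r = 0.851), the chalcone synthase gene that opens flavonoid synthesis, and AT2G23910 (r = 0.835). For *ARF2* they were *ARI1* (r = 0.956), AT1G19680 (r = 0.938) and *BET10* (r = 0.93). *TIR1* was followed most closely by *PLAT2* (r = 0.895), AT1G27020 (r = 0.862) and *LTP2* (r = 0.838), and *AFB1* by the tocopherol gene *G-TMT* (r = 0.882), AT5G22310 (r = 0.879) and AT5G28060 (r = 0.872). The gene closest to *AFB2* was AT4G29080 (r = 0.942), which is *IAA27* and has the RefSeq symbol *PAP2*, and its mean, like that of *AFB2*, was highest in Col-0 and lowest in S1. *SWEET12* (r = 0.917), a sucrose transporter gene, and AT1G27030 (r = 0.912) came next. *AFB3* was followed by *PRMT4A* (r = 0.843), AT1G80130 (r = 0.755) and *PAL3* (r = 0.754), a phenylalanine ammonia-lyase gene. Among the members themselves, r was highest for *ARF3* with *ARF4* (0.768) and for *TIR1* with *AFB2* (0.645), and lowest for *ARF4* with *AFB2* (−0.266).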

How the data were processed

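Libraries of 24 seedling samples (8 genotypes, 3 replicates each) were grouped by genotype and replicate number in their labels. The reads were checked by the authors with FastQC 0.11.5, aligned to TAIR10 (Hisat2) and assigned to genes (FeatureCounts), and what was deposited were raw gene counts without normalization. Strand use, multiply mapping reads and overlapping genes are not stated, so reads of opposite-strand neighbours may be included. Counts were analysed with edgeR 4.0.16 in R 4.3.3: filterByExpr left 22089 genes, libraries were scaled by TMM, and all 24 libraries entered 1 quasi-likelihood fit, by genotype. F tests were two-sided, with Benjamini-Hochberg adjustment over all genes tested, and an adjusted p under 0.05 was called. The procedure was tested on simulated data, in which estimates were close to the true changes and few unchanged genes were called, but most genes given the smallest change were missed, so that a small difference that did not pass is not shown to be absent. The study used DESeq2, and DESeq2 1.42.0 was an alternative here. Expression in CPM was averaged as mean ± SD, and levels were compared between genes per kb of exon.

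The members, gene lists and tests were chosen with earlier results of these data known. All members and all small RNA route genes were named, and from each other pathway list at most 3 genes, those called in most lines against *tt19-8*, ties going to the larger change. The 3 genes most like a member by r over log2 CPM (prior count 2) were listed. Gene symbols, exon lengths and sequences came from RefSeq TAIR10.1, which held 28932 of the 33331 identifiers and whose coordinates are given; counts were made on TAIR10. With totals of 25.8 to 73.4 M, 3 counts corresponded to 0.0414 to 0.116 CPM, which covers counting error only. The common biological coefficient of variation was 14.2%. Libraries of 1 genotype differed beyond sampling noise (median chi-square of a pair 3.35 to 25.7 times what sampling alone gives).

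Pairing by replicate number was checked in the 13 comparisons with *tt19-8* or Col-0, and pairs of lines were not checked. The r over genes of same-numbered libraries exceeded 0.1, the limit set here for pairing, in every pair for S2 and *tt19-8* (0.118, 0.102 and 0.229). The labels name no pairs. For S8 and *tt19-8* it was 0.0796, 0.0778 and 0.266. For S7 and *tt19-8* it was −0.122, −0.123 and −0.263. Each r was taken over deviations from the genotype mean, so the 3 values of a comparison are tied to each other. Low-oxygen markers were high in replicate 3 of S2, S8 and *tt19-8* and low in that of S7. Pairing and a shared state of replicate 3 therefore cannot be told apart, and the main fit took all libraries as unpaired. A replicate block was an alternative, with the same effect of each number in all genotypes. No paired test of S2 and *tt19-8* alone was run. Other alternatives were RLE scaling, no filter, a threshold of 0.01, leaving out each library, leaving out replicate 3 of *tt19-8*, S2 and S8, fitting the compared genotypes alone and, added after the data were seen, leaving out replicate 3 of all genotypes.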

Additional observations from a re-analysis of the deposited data

Results flagged for a closer look

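*AFB1* was called in opposite directions in a pair of lines, lower in S1 and higher in S7 than in *tt19-8*. The difference itself was tested, and *AFB1* was lower in S1 than in S7 (30.1 ± 0.52 against 42.9 ± 4.7 CPM; SD, n = 3 each; log2 fold change −0.51 ± 0.08; adjusted p = 1.08e-05, edgeR). Every S1 library lay below every S7 library, but the share of all genes without overlap in this pair is not given. Between S1 and S7 46.9% of all genes tested were called, and all 7 members were lower in S1, so the difference is not particular to *AFB1*. The lines also differed in the sum of root markers (103.5 to 112.4 CPM in S1 and 171.4 to 212.8 CPM in S7) and in the sum of green shoot markers (126.9 to 131.8 CPM in S1 and 292.3 to 342.1 CPM in S7). The part of these markers in the difference of *AFB1* was not tested.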

How the results depend on the processing

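Of the 20 calls against *tt19-8*, 9 remained under every alternative run, as did 13 of 23 against Col-0. Against *tt19-8*, 12 of 42 were called at a threshold of 0.01 and 12 when only the 2 genotypes compared were fitted, and leaving out 1 library gave 16 to 23. Fitting only the 2 genotypes ended the calls of *ARF2* (S1 0.0533, S5 0.0713), *ARF3* (S2 0.0749, S5 0.0633) and *TIR1* (S5 0.0556). It also ended those of *AFB1* (S7 0.152), *AFB2* (S8 0.0686) and *AFB3* (S2 0.149) (adjusted p, edgeR). DESeq2 gave 22, RLE scaling 21, no filter 19, the replicate block 20, and leaving out replicate 3 of all genotypes, chosen after seeing the data, 24. For *tt19-8* against Col-0 the count of 1 became 0 at 0.01, and 0 to 1 without 1 library. Against Col-0 the 23 became 14 at 0.01 and 18 to 24 without 1 library, and between lines the 45 became 29 and 35 to 53. Fitting only the line and Col-0 ended *ARF2* in S7 (0.0579), *ARF3* in S2 (0.12) and *AFB2* in S2 (0.0841), and added *ARF2* in S1 (0.0119). No filter ended *ARF2* in S7 against Col-0 (0.0568) and *ARF4* in S1 against *tt19-8* (0.0557) (adjusted p, edgeR). The replicate block gave each replicate number the same effect in all genotypes, so it was no paired test of S2 and *tt19-8*, the comparison that met the limit for pairing. It changed no call in that comparison. Elsewhere, where libraries share only a number, it ended the call of *AFB3* in S4 against Col-0 (adjusted p = 0.0554, edgeR) and added *ARF2* in S1 against Col-0 (0.0434). Counts of all genes called against *tt19-8* moved by over 1.5 times at 0.01 (S1 4779 from 7506, S2 2111 from 4217, S4 2035 from 4126, S5 2911 from 5465, S7 5393 from 8248 and S8 3450 from 5659), and in *tt19-8* against Col-0 (1184 from 3011). They did so with replicate 3 of all genotypes left out (S2 6768, S4 7776, *tt19-8* against Col-0 4751), without replicate 3 of *tt19-8*, S2 and S8 (S4 6944) and with only the 2 genotypes fitted (S2 894, S5 2963, S7 5461). Without 1 library the lowest counts were 2801 (S2), 2384 (S4), 3384 (S5) and 1663 (*tt19-8* against Col-0). The causes were not tested.

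The sign changed in 26 values of 13 comparisons, none of them called, with sizes up to 0.0423 on the log2 scale and adjusted p of at least 0.742 (edgeR; DESeq2 where named). Without replicate 3 of *tt19-8*, S2 and S8, *tt19-8* against Col-0 gave −0.0423 (*ARF2*) and −0.00336 (*TIR1*). Without replicate 3 of all genotypes, the values against Col-0 were −0.000182 (*ARF2*, *tt19-8*), 0.00277 (*TIR1*, S2), −0.0161 (*AFB1*, S5) and 0.0148 (*AFB3*, S7). *AFB1* in S8 against Col-0 was 0.0053 with DESeq2 and 0.00508 with RLE scaling. Leaving out 1 library gave ranges against *tt19-8* of −0.0325 to 0.102 (*ARF2*, S2), −0.022 to 0.0954 (*AFB1*, S2), −0.0473 to 0.0182 (AFB2, S7 against tt19-8) and −0.0686 to 0.00759 (*AFB3*, S4). Against Col-0 it gave −0.0343 to 0.097 (*ARF2*, *tt19-8*), −0.00438 to 0.102 (*ARF3*, S1), −0.0589 to 0.00528 (*TIR1*, S7), −0.0555 to 0.0087 (*TIR1*, S8), −0.0213 to 0.0437 (*TIR1*, *tt19-8*), −0.00891 to 0.0896 (*AFB1*, S5), −0.0315 to 0.0225 (AFB1, S8 against Col-0) and −0.104 to 0.0282 (*AFB3*, S7).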
